A study of Mus musculus with 2 samples.

Results

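Dense clusters of accessible regions outside the promoters of protein-coding genes were described in 2 DNase-seq libraries of mouse kidney. A region was a merged overlap that held a peak of each library. Such regions were taken on chromosomes 1 to 19. Those over 2000 bases from every protein-coding transcription start site (TSS) are called distal here, and only these were used. A protein-coding TSS is the start of a protein-coding transcript of a protein-coding gene, so starts of other transcripts were not excluded. Neighbours were joined while the gap between them was 5000 bases or less, and a run of 5 or more regions was kept as a chain. The chains were therefore chosen by measured values, namely the positions of the peaks called in both libraries, and they were ranked by the deposited signal summed over their regions, as the mean of the libraries. Of 96746 shared regions, 68004 were distal. The rule kept 899 chains with 5343 regions, or 7.86% of the distal regions. Of these chains, 19 spanned a protein-coding TSS, which lay between their regions. The other distal regions formed 12577 runs of 2 to 4 regions (30267 regions) or stood alone (32394 regions).

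The tissue was female B6CASTF1/J kidney from an age of 8 to 10 months, and the libraries are labelled as biological replicates 1 and 2 of 1 kidney group, with no other tissue or treatment. B6CASTF1/J is the first-generation cross of C57BL/6J and CAST/EiJ mice. Reads of the CAST/EiJ chromosomes may map less well to the reference, which is that of C57BL/6J. The labels give the replicates separate tissue samples but the same donor entry, and do not say that they came from separate animals, so each SD with n = 2 is over libraries and the spread between them may be technical. The kidney holds many cell types, and a weaker signal in bulk tissue may mean fewer cells with the site open or less opening per cell, which cannot be told apart here.

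DNase I cuts DNA where nucleosomes are displaced, so a peak marks an accessible stretch, and a footprint marks bases within it that were cut less, as under a bound protein. Distal accessible sites include enhancers, insulators and the promoters of noncoding RNA genes. Enhancers often lie in groups around genes that define a cell type or answer to hormones, and such groups are known under names such as super-enhancers or locus control regions. Peaks alone do not tell an enhancer from another kind of site, and no assay of enhancer activity was made in these samples.

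The sequences of the strongest regions of leading chains are printed as examples. They are given on the plus strand of mm10 (GRCm38.p6), for 7 of the 12 chains of highest summed signal, and capitals mark the bases listed as footprint in both libraries. A region longer than 300 bases is shown by its central 300 bases. The regions are those of the chains beside the clock gene Nr1d1 (chr11:98783381-98783640), at the microRNA host gene Mir22hg (chr11:75461311-75461610), beside Malat1 (chr19:5803561-5803800), beside Irf2bpl (chr12:86894461-86894720), beside Spag9 (chr11:94133341-94133620), past Pck1 (chr2:173178041-173178280) and before Klf9 (chr19:23135741-23136040).
Nr1d1: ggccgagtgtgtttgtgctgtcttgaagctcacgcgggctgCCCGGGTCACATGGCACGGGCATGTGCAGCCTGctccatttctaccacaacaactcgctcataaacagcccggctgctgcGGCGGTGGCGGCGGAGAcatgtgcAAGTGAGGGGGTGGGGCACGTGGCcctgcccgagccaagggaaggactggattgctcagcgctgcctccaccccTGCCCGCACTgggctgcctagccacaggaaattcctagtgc
Mir22hg: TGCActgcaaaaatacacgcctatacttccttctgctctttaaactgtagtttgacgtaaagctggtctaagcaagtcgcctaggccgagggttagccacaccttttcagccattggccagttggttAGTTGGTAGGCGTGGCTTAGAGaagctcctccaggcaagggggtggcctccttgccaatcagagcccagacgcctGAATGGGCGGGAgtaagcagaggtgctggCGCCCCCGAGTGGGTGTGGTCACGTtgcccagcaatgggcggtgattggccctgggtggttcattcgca
Malat1: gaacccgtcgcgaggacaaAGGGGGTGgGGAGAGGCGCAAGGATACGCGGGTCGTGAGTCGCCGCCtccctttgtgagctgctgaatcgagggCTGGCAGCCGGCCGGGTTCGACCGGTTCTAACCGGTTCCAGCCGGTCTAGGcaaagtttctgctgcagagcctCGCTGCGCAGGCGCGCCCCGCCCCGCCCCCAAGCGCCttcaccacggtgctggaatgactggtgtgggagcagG
Irf2bpl: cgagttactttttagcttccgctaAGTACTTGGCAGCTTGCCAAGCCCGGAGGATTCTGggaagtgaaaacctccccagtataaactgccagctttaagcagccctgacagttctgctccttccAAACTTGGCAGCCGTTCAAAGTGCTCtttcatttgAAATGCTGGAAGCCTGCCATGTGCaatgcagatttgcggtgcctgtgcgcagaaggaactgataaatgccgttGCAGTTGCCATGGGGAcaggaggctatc
Spag9: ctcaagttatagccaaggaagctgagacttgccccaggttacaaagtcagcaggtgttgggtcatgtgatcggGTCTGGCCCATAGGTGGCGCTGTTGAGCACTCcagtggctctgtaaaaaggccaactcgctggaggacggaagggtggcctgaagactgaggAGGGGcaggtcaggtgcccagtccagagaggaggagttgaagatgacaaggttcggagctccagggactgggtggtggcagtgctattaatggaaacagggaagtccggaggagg
Pck1: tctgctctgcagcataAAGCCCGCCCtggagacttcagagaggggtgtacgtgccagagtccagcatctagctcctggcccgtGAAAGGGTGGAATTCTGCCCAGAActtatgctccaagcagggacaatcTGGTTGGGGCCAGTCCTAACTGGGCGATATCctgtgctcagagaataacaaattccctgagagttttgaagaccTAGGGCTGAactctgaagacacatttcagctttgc
Klf9: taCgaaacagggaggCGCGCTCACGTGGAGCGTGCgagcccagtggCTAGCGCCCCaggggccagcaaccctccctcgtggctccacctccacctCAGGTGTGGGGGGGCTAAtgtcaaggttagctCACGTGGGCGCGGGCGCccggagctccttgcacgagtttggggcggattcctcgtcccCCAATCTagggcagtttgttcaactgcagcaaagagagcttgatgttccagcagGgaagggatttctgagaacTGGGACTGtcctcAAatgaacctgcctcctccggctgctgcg

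The footprints covered 135 of 240 bases in the Malat1 region, 84 of 260 in the Nr1d1 region and 37 of 280 in the Spag9 region. The Irf2bpl region held the letters CTTGGCA, a consensus of the nuclear factor I family, on either strand at positions 29, 39 and 128, counted from 1 at the first printed base. The E-box CACGTG, the site of basic helix-loop-helix factors such as CLOCK and BMAL1, was at position 162 of the Nr1d1 region and at positions 22 and 128 of the Klf9 region. The E-box was added to the search after these sequences had been seen. Over all distal regions, 10.9% held CTTGGCA, 9.85% the AP-1 letters TGANTCA and 6.19% CACGTG, so a match in 1 region is not rare.

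The first chain, of 9 regions over 7280 bases, lay between Nr1d1 and Msl1 at chr11:98781861-98789140, with no annotated gene across it. Nr1d1 encodes REV-ERB alpha, a repressor of the circadian clock, Msl1 a subunit of a histone acetyltransferase complex, and Thra, 12855 bases away, a thyroid hormone receptor. Its summed signal was 59.9 in replicate 1 and 56.9 in replicate 2, or 58.4 ± 2.13 (SD, n = 2). The signal was not even along the chain. In replicate 1 the 9 regions read 1.21, 1.65, 0.521, 19.1, 0.728, 2.70, 14.7, 12.4 and 6.95, and in replicate 2 they read 0.934, 1.26, 0.584, 14.5, 0.634, 3.29, 12, 17.1 and 6.57. Counted along the chain, regions 4, 7, 8 and 9 were the high ones in both libraries. The strongest was region 4 in replicate 1 and region 8 in replicate 2.

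The ninth chain had the most shared footprints per region of the 899 chains. It lay 4386 bases before the start of Klf9, which encodes a zinc-finger transcription factor induced by glucocorticoid and thyroid hormone, at chr19:23133161-23136840. It also overlapped the noncoding gene 2410080I02Rik, and its strongest region was 801 bases from a TSS of that gene. Its 5 regions read 7.31, 6.19, 8.36, 12 and 6.90 in replicate 1 and 5.35, 5.83, 6.30, 11.5 and 6.29 in replicate 2, so each was higher in replicate 1. They held 24 footprint stretches listed in both libraries, or 4.80 per region. The summed signal was 40.7 and 35.3. Between the regions, 100% of bases in replicate 1 and 93.0% in replicate 2 were themselves listed at a false discovery rate (FDR) of 0.05 or less, so that the chain was close to 1 unbroken accessible stretch.

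The chain past Pck1 was of another kind, with many members that were weak beside those of the Klf9 chain. Pck1 encodes the cytosolic phosphoenolpyruvate carboxykinase, a key enzyme of gluconeogenesis in the proximal tubule. The chain began inside the gene and ran on past its end, at chr2:173157461-173187500. It had the most regions (24) and the longest span (30040 bases) of all chains. Its sum was 37.4 in replicate 1 and 44.1 in replicate 2, the seventh place. The mean signal per region was 1.70, against 7.60 in the Klf9 chain. The strongest region read 5.23 and 5.42 and carried 13.1% of the sum, and the weakest read 0.240 and 0.267. Of the 24 regions, 17 were higher in replicate 2. Region 20 read 1.69 in replicate 1 and 4.07 in replicate 2, and region 23 read 1.93 and 3.50. Of the bases between regions, 32.7% were listed in replicate 1 and 53.8% in replicate 2.

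**Figure D1:**
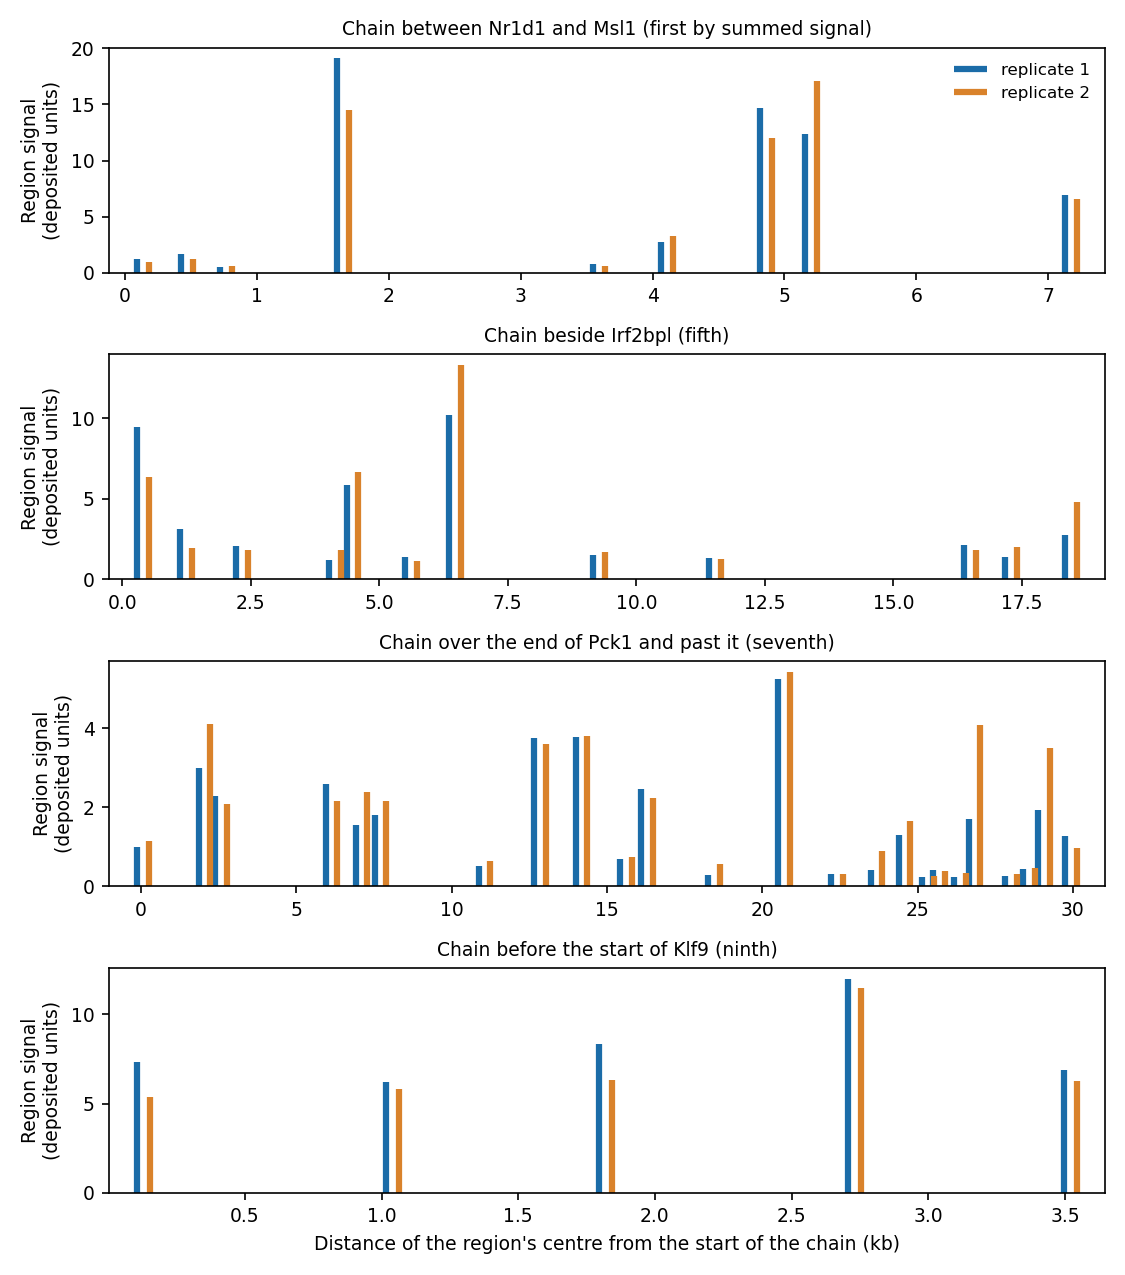
Signal of each region along 4 chains, in the deposited units, against the distance of the region's centre from the start of the chain in kb. Blue bars are replicate 1 and orange bars replicate 2, drawn side by side at each region, and the vertical scale differs between panels. The chain between Nr1d1 and Msl1 has 4 strong regions among 9, the chain beside Irf2bpl has 12 regions, the chain of Klf9 has 5 regions of like height, and the chain past Pck1 has 24 regions of which none passes 5.42.

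Irf2bpl, which encodes a nuclear zinc-finger protein, had 2 of the 12 first chains within 50 kb. The fifth chain, at chr12:86888121-86906680 on the upstream side of the gene, held 12 regions and summed to 42.5 and 44.7. It also overlapped the noncoding gene Gm26698, and its strongest region was 1894 bases from a TSS of that gene. The twelfth chain, at chr12:86823981-86836940 on the other side, held 7 regions and summed to 40.1 and 30.8. In the fifth chain, replicate 1 read 9.48 in the first region and 10.2 in the seventh, and replicate 2 read 6.33 and 13.3, so the libraries ordered them alike but with unlike spacing. In the twelfth chain 6 of 7 regions were higher in replicate 1. Cipc, which encodes a protein that binds CLOCK, was 40363 bases from the fifth chain.

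Several first chains had their strongest region at or near the start of a noncoding gene, which the distance rule did not exclude. In 8 of the 12 the strongest region lay within 2000 bases of the TSS of a gene that is not protein-coding, against 104 of all 899 chains (11.6%). This was looked at after the ranking had been seen. The strongest region of the second chain (chr11:75458261-75463280, sums 60.9 and 47.0) overlapped the start of Mir22hg, the host of a microRNA, and read 25.8 in replicate 1 and 17.6 in replicate 2. The third (chr19:5802601-5819900, 43.7 and 47.1) had its strongest region 889 bases from the start of Malat1, an abundant nuclear RNA, with 16.0 and 16.3. The eighth (chr19:5833281-5850420, 39.0 and 41.5) had 15 regions and its strongest at the start of Neat1, the RNA scaffold of paraspeckles, with 11.2 and 10.9. The eleventh (chr11:116668601-116675760, 33.1 and 38.7) had its strongest at the start of 1810032O08Rik, which holds the small nucleolar RNA genes Snord1a, Snord1b and Snord1c, with 14.4 and 18. That region carried 45.2% of the sum. The second, eighth and eleventh chains also overlapped protein-coding genes, namely Tlcd2, Frmd8 and St6galnac2.

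The sixth chain (chr11:94128041-94138880, 42.0 and 41.1) began 1956 bases past Spag9, which encodes a scaffold of JNK signalling, and its strongest region overlapped a start of the noncoding B230206L02Rik. The tenth chain (chr6:128838381-128856540) lay over BC035044 among C-type lectin genes of natural killer cells such as Klrb1b, 12050 bases away. Its strongest region overlapped a start of the noncoding Gm44066. Its sum was 31.0 in replicate 1 and 41.9 in replicate 2, and 8 of its 10 regions were higher in replicate 2. With distances taken to the TSS of every annotated gene instead, 623 chains were left, and 4 of the 12 first chains overlapped a chain among the first 12. That set also takes in other transcripts of protein-coding genes, and the share of noncoding genes in the fall was not counted. The second chain had the highest mean signal per region of all chains, at 7.71.

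Over all 899 chains, 488 had 5 regions, 211 had 6, 98 had 7, 52 had 8 and 15 had over 10. The span had a lowest value of 2316, a median of 9359 and a highest value of 30040 bases, and regions covered 17.2% of it. The summed signal ran from 2.71 through a median of 10.3 to 58.4. The strongest region carried a median of 34.4% of the sum, from 11.4% to 80.2%, and in 74 chains it carried over 50%. It was the same region in both libraries in 610 chains (67.9%). It lay at an end of the chain in 34.1% of chains, against 33.7% of all chain regions being end regions. Just inside the threshold, chains of 5 regions had a median sum of 8.41, and just outside it, 1127 runs of 4 had a median of 5.85 and a highest sum of 32.6. The widest gap joined was 5000 bases and the narrowest that ended a chain 5020.

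Of the 899 chains, 398 (44.3%) lay wholly inside the body of a protein-coding gene, 383 overlapped none, and 95 (10.6%) had none within 50 kb. By region, 42.1% of chain regions were intronic, against 43.3% of all distal regions. The median number of protein-coding genes within 50 kb was 2.00 and the most 14. Igf1r, the insulin-like growth factor receptor gene, and Tns1, which encodes the focal adhesion protein tensin, each overlapped 3 chains. So did Zmiz1, a transcriptional coregulator gene, and Gse1. The chains that overlapped Tns1 had 19 regions with summed signals of 66.9 in replicate 1 and 60.3 in replicate 2. Those that overlapped Zmiz1 had 21 regions with 70.4 and 52.1, counted with regions that lay before the gene. The gene model Gm20388 overlapped 8 chains, but it spans chr8:119910841-124345722 and takes in Gse1.

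Some chains lay near each other, with 125 of the 899 (13.9%) within 50 kb of another. No like share was counted for other runs, so this does not show that chains gather more than other runs. The groups with the most members had 4 chains. One ran over chr15:85598921-85710480, between Wnt7b, a Wnt ligand gene, and Ppara, a nuclear receptor of fatty acid oxidation, with 26 regions and summed signals of 88.5 and 85.0. The other ran over chr11:120182732-120311080, near Bahcc1, Slc38a10 and the cytoplasmic actin gene Actg1, with 21 regions and 81.1 and 83.8. A group of 3 chains beside Pim3 and Creld2 (chr15:88827981-88876660) summed to 86.0 and 83.2, and a group of 3 around Thra and Nr1d1, which holds the first chain, to 81.6 and 75.

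The libraries were then compared over the chains, with each chain's summed signal as the value. Replicate 2 over replicate 1 had a median log2 ratio of −0.14, from −1.26 to 1.10, and 6 chains were over 2-fold apart. A limit of 1.5-fold was passed by 125 chains, 80 higher in replicate 1 and 45 in replicate 2. The regions of a chain leaned the same way to a small degree. The intraclass correlation of the region log2 ratios within chains, the share of their variance that lies between chains, was 0.161, against 0.158, 0.207 and 0.242 in runs of 4, 3 and 2. Every region was higher in replicate 1 in 97 chains and in replicate 2 in 33. These values describe 1 pair of libraries and carry no test.

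The chains that leaned to replicate 2 included a distinct set, those over transfer RNA (tRNA) genes, which RNA polymerase III transcribes and which often lie in genomic clusters. This was noticed after the values had been seen. Of 386 tRNA genes annotated by RefSeq on chromosomes 1 to 19, 60 overlapped a chain region, in 15 chains. All 15 had the higher sum in replicate 2, with a median log2 ratio of 0.64 (0.38 to 0.95), against 296 of the other 884 chains (33.5%) and a median of −0.15. Their sums had a median of 17.0 in replicate 1 and 30.3 in replicate 2. The lean was larger at the tRNA genes than in the other regions of these chains. All 58 chain regions over a tRNA gene were higher in replicate 2 (median 0.80), while 31 of the 41 other regions of the same chains were (median 0.36), against 2036 of the 5244 regions of other chains (38.8%, median −0.15). It was not confined to chains, since 84 of 88 such regions outside them were also higher in replicate 2 (median 0.84).

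The first of these chains, fifteenth in rank, lay over and beside Ctc1 at chr11:69035961-69041920, with Aurkb, which encodes a mitotic kinase, 3727 bases away, and held 6 tRNA genes. It summed to 27.5 in replicate 1 and 41.4 in replicate 2. Its strongest tRNA region (chr11:69040901-69041160) read 5.57 and 9.53, and is printed here as an example of such a region, with the tRNA gene in capitals.
tRNA: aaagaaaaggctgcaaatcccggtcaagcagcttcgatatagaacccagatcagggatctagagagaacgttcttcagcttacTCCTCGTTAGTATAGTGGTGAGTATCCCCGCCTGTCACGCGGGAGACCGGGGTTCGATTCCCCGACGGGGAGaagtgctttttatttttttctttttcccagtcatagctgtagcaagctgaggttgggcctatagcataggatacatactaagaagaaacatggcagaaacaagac

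By the ratio rule, 5 chains of the first 100 were named. The one farthest apart lay near the olfactory receptor gene Olfr750 and the ribonuclease gene Rnase12 (chr14:51062801-51065380), with sums of 17.0 and 31.5 and a log2 ratio of 0.89. It held 3 tRNA genes, and its region 4 read 5.72 and 12.4. The next lay in a histone gene cluster, with Hist1h4h the nearest (chr13:23517161-23526660), had 7 tRNA genes, and summed to 16.8 and 30.3. The chain near Hfe2, a regulator of iron balance (chr3:96497441-96503400), had 5 tRNA genes and sums of 19.9 and 34.2. The chain near Trim7 and Irgm1 (chr11:48853481-48857080) had 3 and sums of 19.8 and 30.6. In these 4 chains every region was higher in replicate 2. The last, near Gnl1 and the histocompatibility gene H2-T24 (chr17:35993701-36001040), had no tRNA gene, and 67.5% of its sum came from 1 region that read 10.6 and 18.5. Of the first 100 chains, 8 were over 1.5-fold higher in replicate 2 and 6 of those held a tRNA gene, while 2 were over 1.5-fold higher in replicate 1.

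**Figure D2:**
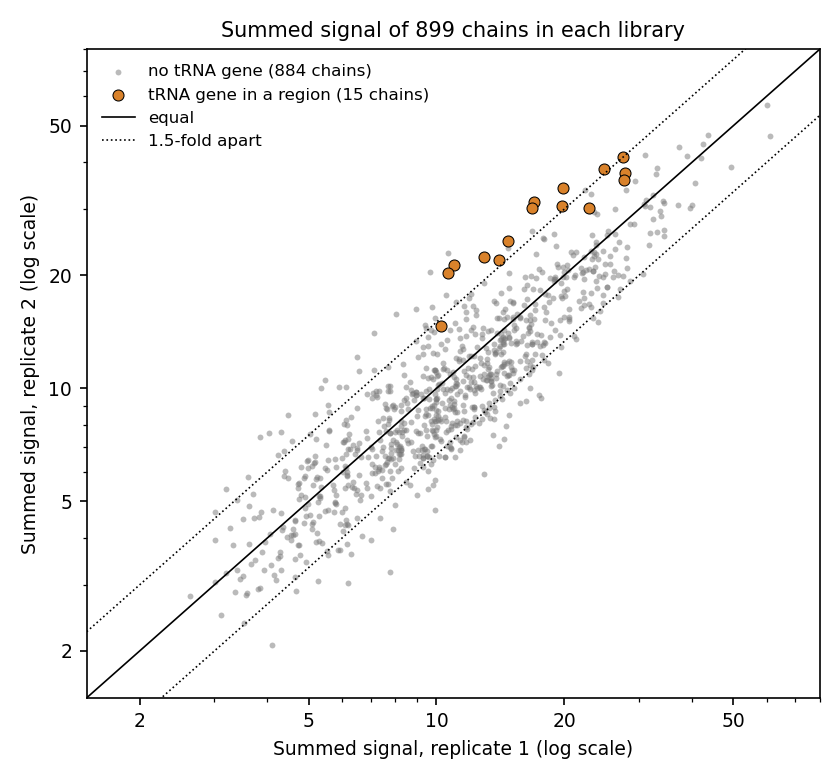
Summed signal of each of the 899 chains in replicate 1 (x axis) and replicate 2 (y axis), both on log scales. Each point is a chain, orange points are the 15 chains that hold a tRNA gene, the solid line marks equal sums and the dotted lines 1.5-fold. All orange points lie above the solid line, and 11 of them lie above the upper dotted line.

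Single regions of chains differed less between the libraries than other distal regions. Of the chain regions, 8.09% (95% interval 7.37 to 8.85) were over 2-fold apart, against 14.8% of all distal regions and 17.5%, 14.0%, 13.1% and 9.83% in runs of 1, 2, 3 and 4. Chain regions also had a higher signal, with medians of 1.46 and 1.33 in the libraries against 0.860 and 0.842 outside chains, and 5.80% had a mean signal under 0.5, against 21.9% outside. At like signal the order stayed. For a mean signal of 1 to 2, 8.32% of chain regions (7.09 to 9.69) and 21.0% of the others (20.4 to 21.6) were over 2-fold apart, and for 4 or more 6.21% (4.38 to 8.49) and 10.0% (8.81 to 11.4). All 5 classes of signal had the lower share in chains, and no pair of intervals overlapped. The intervals are exact binomial and cover counting error only, and regions of a chain are not independent.

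Footprints gave another order. A footprint stretch listed in both libraries lay in 73.6% of chain regions (72.4 to 74.8), against 63.6% of all distal regions. The share was 59.3%, 64.9%, 67.9% and 69.5% in runs of 1, 2, 3 and 4. At like signal the order turned in the lower classes. For a mean signal of 0.5 to 1, 47.6% of chain regions (44.9 to 50.2) had a shared footprint against 56.9% outside (56.3 to 57.6), and for 1 to 2, 80.3% (78.4 to 82.1) against 87.7% (87.2 to 88.2). For 2 to 4 the shares were 96.7% and 97.7%, with overlapping intervals, for 4 or more 99.8% in both, and under 0.5 the intervals overlapped at 12.3% and 14.9%. Each library gave the same order on its own in the class of 0.5 to 1, with 84.0% against 89.9% in replicate 1 and 82.5% against 87.6% in replicate 2. With the stronger 50% of peaks as the start, 86.3% of chain regions and 90.4% of all distal regions had a shared footprint. The higher share over all chain regions was thus not seen in any class of like signal. Footprint calls depend on the number of cuts in a region, and chain regions were also wider, with a median of 252 bases against 220.

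**Figure D3:**
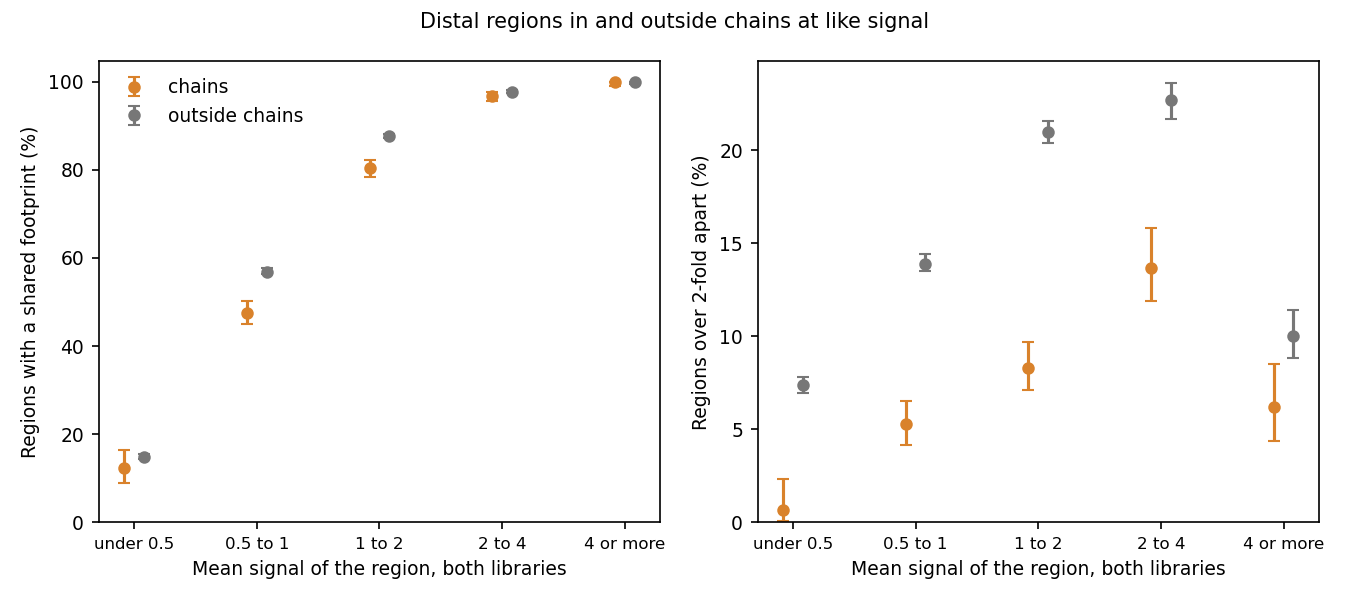
Distal regions in chains (orange) and outside them (grey) by classes of mean signal of both libraries (x axis). The left panel gives the percentage with a footprint stretch listed in both libraries and the right panel the percentage over 2-fold apart between the libraries, with exact 95% binomial intervals. In the right panel every orange point is lower, and in the left panel orange is lower from 0.5 to 2, at 47.6% against 56.9% and 80.3% against 87.7%.

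The DNA between the regions was also more often listed as accessible in chains. Of the bases in gaps, 8.47% in replicate 1 and 9.79% in replicate 2 had an FDR of 0.05 or less, against 6.53% and 6.74% in runs of 2 to 4. Gaps were shorter in chains, with a median of 1151 bases against 1480, and 29.7% were 500 bases or less against 25.1%. At like gap length the order stayed in both libraries. In gaps over 500 and up to 1000 bases the shares were 24.3% against 18.1% in replicate 1 and 28.7% against 20.2% in replicate 2, and in gaps over 4000 and up to 5000 bases 3.14% against 2.87% and 3.02% against 2.62%. In gaps that no peak of either library touched, the shares over all lengths were 7.44% against 5.63% and 8.34% against 5.95%. Those totals mix gap lengths. By length the order stayed, but the differences were small above 1000 bases. Over 500 and up to 1000 bases the shares were 20.5% against 15.1% and 24.0% against 16.4%. Over 1000 and up to 2000 bases they were 6.77% against 6.31% and 7.49% against 6.66%. Over 4000 and up to 5000 bases they were 1.98% against 1.91% and 2.21% against 1.98%. The gaps were not compared at like signal or width of the regions beside them. Chain regions were stronger and wider than those of runs of 2 to 4, and the effect of this on the listed bases was not tested. Among the chains described above, the Klf9 chain had 100% and 93.0% of its gap bases listed and the Malat1 chain 13.8% and 6.72%.

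**Figure D4:**
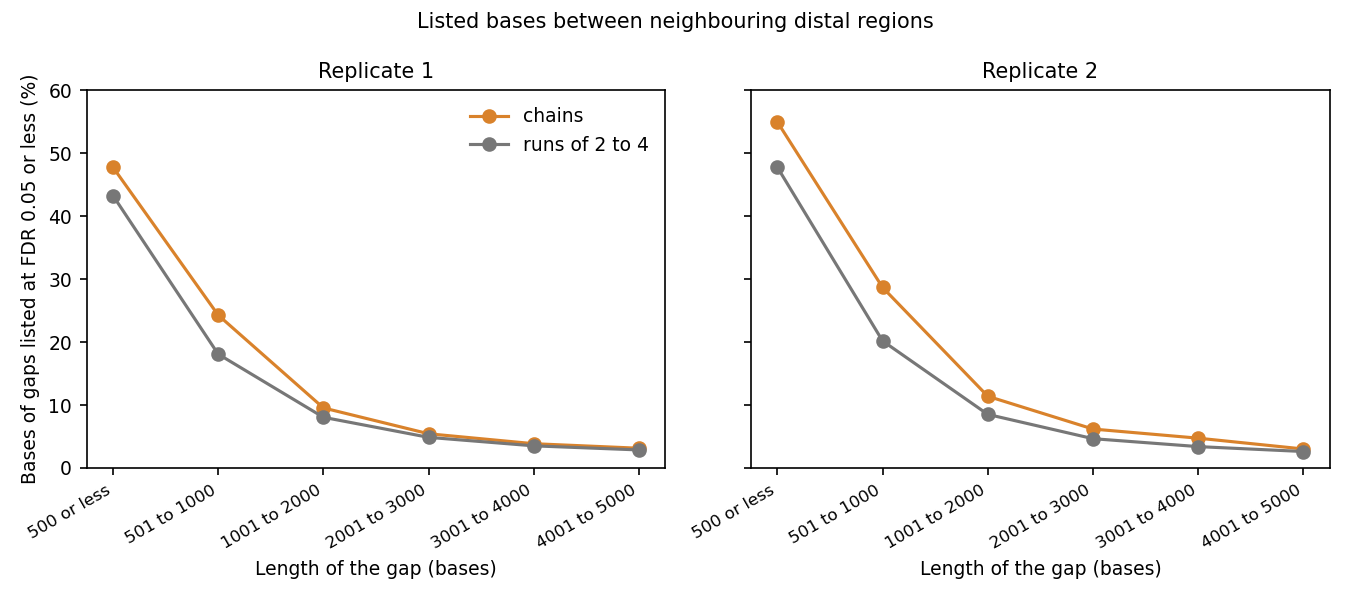
Percentage of gap bases listed at an FDR of 0.05 or less (y axis) by the length of the gap between neighbouring regions in bases (x axis), for replicate 1 (left) and replicate 2 (right). Orange points are gaps within chains and grey points gaps within runs of 2 to 4 regions, both without gaps that hold a region near a TSS. The orange points lie above the grey ones at each length, most clearly over 500 and up to 1000 bases (24.3% against 18.1% and 28.7% against 20.2%).

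The composition of the regions was compared with that of distal regions outside chains. Chain regions had a mean GC content of 52.6% against 50.3% and 20.7 CpG per kb against 17.0. Both rose with the size of the run, from 49.8% and 15.9 in regions that stood alone to 52.0% and 19.3 in runs of 4. They were intergenic in 50.2%, intronic in 42.1% and exonic in 7.77% of cases, against 48.6%, 43.4% and 8.00%. Chain regions lay within 2000 bases of a noncoding TSS in 12.1% of cases against 7.69%. The shares in runs of 1, 2, 3 and 4 were 6.74%, 8.00%, 9.89% and 9.09%.

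Short consensus letters were searched on both strands of each region. The core of the site of CTCF, the factor of insulators and chromatin loops, was in 4.88% of chain regions (4.32 to 5.50) and in 7.29% of the others (7.08 to 7.49). At a mean signal of 2 or more the shares were 7.18% (6.03 to 8.47) and 11.3% (10.7 to 11.9). In the central 150 bases, which take out the difference in width, they were 4.42% and 7.04%. RUNX letters (AACCACA) were in 5.13% against 5.74%, with overlapping intervals, and in the central 150 bases in 2.84% (2.42 to 3.33) against 3.53% (3.39 to 3.68), where the intervals did not overlap. The letters of estrogen-related receptors (TCAAGGTCA), nuclear receptors of energy metabolism, were in 1.37% (1.07 to 1.71) against 0.943% (0.869 to 1.02), and in the central 150 bases in 0.674% (0.472 to 0.932) against 0.557% (0.5 to 0.618), where the intervals overlapped. AP-1, the complex of Fos and Jun, was searched as TGANTCA and had 11.2% (10.3 to 12) against 9.74% (9.51 to 9.97). In the central 150 bases the intervals overlapped, at 6.98% (6.31 to 7.70) and 6.31% (6.12 to 6.50). ETS factors, searched as CCGGAAG, had 3.01% (2.57 to 3.51) against 2.34% (2.22 to 2.46). In the central 150 bases chain regions had 1.80% (1.46 to 2.19) and the other distal regions an interval of 1.40 to 1.59, which overlap, and at a mean signal of 2 or more 3.31% against 3.36%. For TEAD factors, the effectors of Hippo signalling, the letters ACATTCC were in 7.11% against 6.41%, with overlapping intervals. Letters of HNF4, a nuclear receptor of the proximal tubule, searched as CAAAGTCCA, were in 2.00% of chain regions and 1.84% of the others, with overlapping intervals. The same held for forkhead factors, whose letters TGTTTAC were in 4.32% and 4.30% of regions. SOX factors, searched as CATTGTT, had overlapping intervals around 3.33% and 3.23%. For GATA factors the letters AGATAAG were in 2.83% and 2.49%, and again the intervals overlapped. The NF-I letters printed above were in 11.5% and 10.8% of regions, whose intervals overlapped as well. CACGTG was in 8.07% against 6.03%, where the intervals did not overlap, and in the central 150 bases in 4.60% against 4.17%, where they overlapped. Over whole regions the intervals were apart under a mean signal of 1 (7.04% against 5.39%) and from 1 to 2 (8.21% against 6.26%). At 2 or more they overlapped, at 8.89% and 7.92%. There the central 150 bases had the other order, at 4.97% against 5.41%, with overlapping intervals. A match is a description of letters and not of binding.

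Last, 14 gene lists of kidney and other cell types were set against the chains, a gene being counted when its body lay within 50 kb of a chain. Of 20780 protein-coding genes, 8.40% were. Kidney transcription factors had 6 of 18 (33.3%, exact interval 13.3 to 59.0). Ppara had a chain of 9 regions 24503 bases away (chr15:85698296-85710480), with sums of 30.9 in replicate 1 and 30.6 in replicate 2. Hnf4a, a factor of the proximal tubule, had one of 5 regions inside its body (chr2:163532001-163541980, 19.7 and 19.1), and Pax2, a factor of the renal lineage, one of 5 regions 4925 bases away (chr19:44741481-44751120, 20 and 18.2). Members with weaker chains were Esrrg (9.50 and 6.81) and Emx2 (8.24 and 7.96), both overlapping the chain.

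Of the lists of nephron cells, most members had no chain near. Proximal tubule genes had 2 of 16, Pck1 and the organic anion transporter gene Slc22a6, whose chain was 45959 bases away with sums of 8.26 and 6.84. Distal convoluted tubule genes had 2 of 10. Slc12a3, which encodes the thiazide-sensitive sodium chloride cotransporter, had a chain of 6 regions inside the gene (chr8:94358681-94366095), with 24.7 and 23.2, and Emx1 had one 45479 bases away, with 14.5 and 11.0. No gene of the thick ascending limb (0 of 10), principal cell (0 of 9), intercalated cell (0 of 10) or podocyte (0 of 10) lists had one, and the exact intervals, which reach up to 30.8% or 33.6%, hold the 8.40% of all genes, so a difference from all genes is not shown.

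The other cell types of the organ and the lists of other tissues gave like counts. Endothelium had 1 of 12, Erg, an ETS factor of vessels (5.18 and 8.53), and stroma and mural cells 1 of 10, the renin gene Ren1 (12.7 and 12). Immune cells had 1 of 10 (Cd68, 47188 bases from its chain), striated muscle 2 of 10 (Tnnt2 and Ckm), neurons 1 of 10 (Rbfox3, 4.31 and 7.65) and hepatocytes 0 of 10. Housekeeping genes had 3 of 10 (Actb, Rplp0 and Ywhaz), with an exact interval of 6.67% to 65.2%. The interval held 8.40% for each list other than kidney transcription factors. A gene within 50 kb is a neighbour and need not be the target of a chain, and these lists were not tested against other lists.

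**Figure D5:**
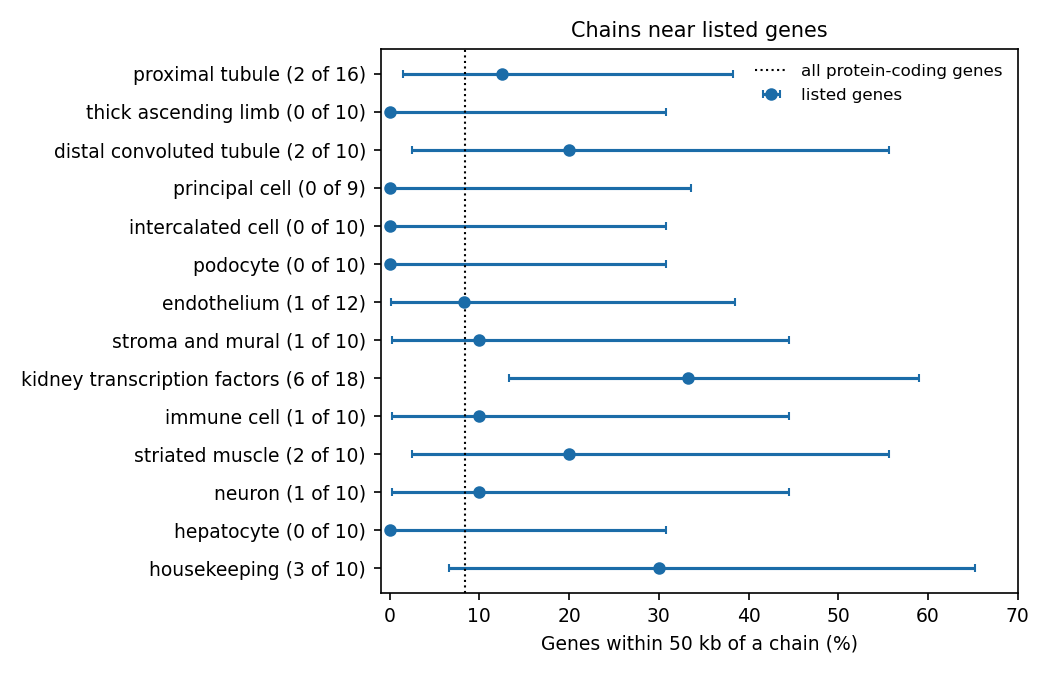
Percentage of the genes of each list whose body lies within 50 kb of a chain (x axis), for 14 lists (rows, with the count in brackets). Points are the percentages, bars exact 95% binomial intervals that cover counting error only, and the dotted line is the 8.40% of all protein-coding genes. The bar of the kidney transcription factors, from 13.3% to 59.0%, lies to the right of the line, but the lists were chosen with earlier results of these data known.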

How the data were processed

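DNase-seq was measured in 2 kidney libraries. Per the labels, files are on mm10, and per the text list that accompanies the deposited files each was made from the filtered alignments of its own library. The sources used here do not name the aligner or the callers. The peak signal was deposited by the authors in whole multiples of a step (0.00827 in replicate 1 and 0.00834 in replicate 2, within 0.1 steps). If a step is 1 tag per M tags (M, mega), the libraries held about 121 M and 120 M tags. The longer lists held 137083 and 125000 peaks. The FDR file gives a q-value for runs of bases and the footprint file a constant p-value or q-value level of 0.01, both set by the authors per the deposited values.

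Peaks that overlapped by at least 1 base were merged and took the highest signal of each library. Annotation was GENCODE M21 and RefSeq (tRNA genes), and sequence came from RefSeq's GRCm38.p6. Tools were bedtools 2.31.1, pysam 0.24.0 and scipy 1.17.1. The chaining step was tested on simulated data. With 1 group of 2 libraries no test across samples was made. The chains named are the 12 of highest summed signal, those with most regions, longest span, highest signal per region and most shared footprints per region, and the 5 with the largest ratio between libraries among the first 100. Of these chains 1, and 1 gene and 1 motif of the lists, are not reported here. The members and lists were chosen with earlier results of these data known. Of 158 listed genes, those off chromosomes 1 to 19 were left out. Gaps, sizes, distances, TSS sets, peak lists and single libraries were varied as alternatives.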

Additional observations from a re-analysis of the deposited data

How the results depend on the processing

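The number of chains (899) followed the rule: 319 with gaps of 2500 bases and 2067 with 10000, 2026 with at least 4 regions and 102 with at least 8, 237 from the shorter peak lists and 397 from the stronger 50% of peaks. Single libraries gave 1715 to 2187. Joining regions with no base between them, an alternative chosen after seeing the data, gave 887. In the same order, the percentage of distal regions in chains (7.86) was 2.69, 19.7, 14.5, 1.4 and 3.17, with 6.05 for the TSS of every annotated gene and 12.5 to 14.1 in single libraries. The percentage with a shared footprint (73.6) was 70.1 with gaps of 2500 bases, 71.7 with at least 4 regions, 71.9 with every TSS, 84 with the shorter lists, 86.3 with the stronger 50% and 81.4 to 83 in single libraries, whose own footprints were then used. It was above that of all distal regions in each of these except the stronger 50%. The percentage over 2-fold apart (8.09) was 7.17, 9.09, 8.88 and 5.15 with gaps of 2500 and 10000 bases and at least 4 and 8 regions, 6.71 with the shorter lists and 6.49 with the stronger 50%, below all distal regions throughout. The percentage of all listed genes near a chain (12.3) was 5.16, 31.6, 28.4, 1.94 and 4.52 with gaps of 2500 and 10000 bases, at least 4 and 8 regions and the shorter lists, 5.16 with bodies within 10 kb and 21.3 to 29.7 in single libraries. Kidney transcription factors ran from 11.1% to 61.1% over these settings and stood above all protein-coding genes (1.16% to 18.6%) in each. These settings reuse the same list and the same libraries, so they are not separate support. Of the 12 first chains, 3 stayed when ranked per kb of span and 4 when ranked by number of regions. With gaps of 10000 bases 4 stayed, and 4 with the TSS of every annotated gene (added after seeing the data). When the same 899 chains were ranked by 1 library alone, 10 stayed for either library. Each library is part of the mean behind the first ranking, so this overlap was in part built in. In the central 150 bases the difference between chains and other regions turned for GATA (−0.03 percentage points), forkhead (−0.14) and NF-I (−0.32). Where a value moved the cause was not tested, except that stricter or looser rules keep fewer or more regions by construction. No paired analysis was possible because there is 1 group of 2 libraries. The effect of depth on the calls was not tested, and of chain regions under a signal of 0.5, 12.3% had a shared footprint while 55.2% and 56.8% had one in replicate 1 and replicate 2.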
